A study of Bos taurus with 3 samples.

Results

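The solute carrier (SLC) genes encode the largest class of membrane transporters of animal cells. They were taken here as every gene whose platform symbol starts with SLC and a number, leaving out SLC9A3R1 and SLC9A3R2, older symbols of scaffold proteins. This gave 252 probe sets of 179 genes, of 9155 genes with a symbol on the array. Where several probe sets read a gene, the one with the highest mean over the 3 arrays was used (in 1 gene, SLC6A2, 2 probe sets tied, and the first by name was taken), and each gene was placed in a class by the solute its family carries. In 2 members, SLC4A1AP and SLC7A6OS, the symbol refers to a neighbouring or interacting gene and not to a transporter.

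The study compared gonadal ridge epithelial-like (GREL) cells with fibroblasts, to find markers of the somatic cells of the developing bovine ovary. The GREL cells were 2 isolates of polygonal cells, enriched by clonal growth from dispersed whole fetal ovaries, which the labels place at 130 days of gestation (the study's text gives isolate 1 as slightly younger). The fibroblasts were 1 culture of fibroblastic cells grown from the medullar stroma of the ovary of an adult over a year old. All 3 were grown in the same medium with fetal calf serum, and RNA of each was hybridized to 1 Affymetrix GeneChip Bovine Genome Array. Cell type, fetal against adult age, region of the ovary, animal and culture therefore cannot be told apart. Since the arrays read bulk RNA, fewer cells of a type and less RNA per cell cannot be told apart either.

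SLC proteins move sugars, amino acids, nucleosides, vitamins, metals and ions across the plasma membrane and the membranes of organelles, either down a gradient or coupled to the gradient of another ion. Members of the SLC25 family sit mostly in the inner membrane of mitochondria and exchange nucleotides, phosphate and metabolites, while SLC35 members bring nucleotide sugars into the Golgi apparatus and endoplasmic reticulum. In ovarian follicles, granulosa cells take up amino acids and break down glucose, and pass products of both to the oocyte through gap junctions.

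Values are log2 intensities, normalized by the authors and rounded to steps of 0.1, so a difference of 1 is 2-fold. The deposited values carry no detection calls. A background level was therefore set on each array at the 90th percentile of 64 genes of other organs, which was 5.25 for isolate 1, 5.09 for isolate 2 and 5.78 for the fibroblasts. A few bright genes of other organs raise this level (their median was 1.8 in isolate 1, 1.9 in isolate 2 and 2.0 in the fibroblasts), and a gene below it may still be expressed. The level was highest in the fibroblasts, so a gene had to be brighter there to pass it. The isolates carried more epithelial marker RNA: over 7 markers the log2 of the summed intensity was 12.39 in isolate 1, 12.73 in isolate 2 and 10.57 in the fibroblasts. Over 9 stromal markers it was 12.78 in isolate 1, 11.97 in isolate 2 and 13.43 in the fibroblasts. Most of the epithelial sum came from KRT18 (11.4 in isolate 1, 11.8 in isolate 2, 10.4 in the fibroblasts) and KRT19 (11.3, 11.6 and 7.1). Both were above the background level in all 3 cultures. The study had listed KRT19, KRT7 and PKP2 as higher in these same isolates, so the epithelial sum is not independent support. KRT7, KRT8, EPCAM and CDH1 did not reach the background level on any array. COL1A1, COL1A2, COL3A1, DCN, LUM and PDGFRA were above it on all 3. Of the 9 stromal markers 8 were lower in both isolates (33.5% of all genes were). Over 2-fold lower were 4 (4.78% of all genes were), and over 3-fold lower were 2 (2.38% of all genes were). These 2 were TCF21 (3.4 in isolate 1, 3.2 in isolate 2, 7.4 in the fibroblasts) and PDGFRA (6.1, 5.5 and 8.3). In THY1 the fibroblasts lay between the isolates. Markers of granulosa cells, endothelium and blood (5 measured for each) were below the background level on every array, while 3 of 4 smooth muscle markers were above it on every array. All 17 measured cell cycle genes were higher in both isolates (41.6% of all genes were), 12 of them over 3-fold (2.38% of all genes were). The log2 of their summed intensity was 10.84 in isolate 1, 11.68 in isolate 2 and 9.02 in the fibroblasts. The part of proliferation and of stromal RNA in the differences of the SLC genes was not tested.

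Few SLC genes differed widely between GREL cells and fibroblasts. None of the 179 was over 3-fold higher in both isolates, where 2.38% of all 9155 genes were. SLC16A3, SLC29A1 and SLC39A8 were over 3-fold lower in both (3 genes, 1.68%), where 2.38% of all genes were. With the other tied probe set of SLC6A2 they were 4. At 2-fold, 3 SLC genes were higher (1.68%, against 5.80% of all genes) and 6 were lower (3.35%, against 4.78% of all genes). By any amount 53 SLC genes were higher in both isolates (29.6%, against 41.6% of all genes) and 70 were lower in both (39.1%, against 33.5% of all genes). Without isolate 1, 3 SLC genes were over 3-fold higher (1.68%, against 4.71% of all genes) and 6 were over 3-fold lower (3.35%, against 3.62% of all genes). At 2-fold, 11 were then higher (6.15%, against 10.6% of all genes) and 12 were lower (6.70%, against 7.14% of all genes). Without isolate 2, 5 were over 2-fold higher (2.79%, against 6.93% of all genes). In each of these counts the share of SLC genes that were higher in the isolates was below that of the array as a whole. Among the 53 SLC genes above background on at least 1 array, 1 was over 2-fold higher (1.89%, against 9.07% of all such genes). There 4 were over 2-fold lower (7.55%, against 5.65%) and 2 were over 3-fold lower (3.77%, against 3.14%). On the lower side these counts were few and lay near the shares of all such genes. A gene could pass this filter through the culture in which it was high. SLC25A33 passed it in the isolates only and SLC2A1 in the fibroblasts only. No contrast of direction is therefore drawn from these filtered shares.

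The differences of the SLC genes were centred on 0. Their median log2 difference, mean of the isolates minus fibroblasts, was 0 (quartiles -0.25 and 0.30), beside 0.05 for all genes (quartiles -0.30 and 0.45). The difference was at most 0.5 in either direction in 136 SLC genes (76.0%) and in 63.2% of all genes. Among genes above the background level on at least 1 array these shares were close, at 50.9% of 53 SLC genes and 52.5% of all such genes. The SLC genes ranged from -2.2 for SLC39A8 to 1.4 for SLC25A33 (from -2.55 with the other tied probe set of SLC6A2), and all genes from -7.15 to 4.35. Of the SLC genes 53 (29.6%) lay above the background level on at least 1 array, where 46.6% of all genes did. On all 3 arrays 29 (16.2%) lay above it, where 29.3% of all genes did.

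**Figure D1:**
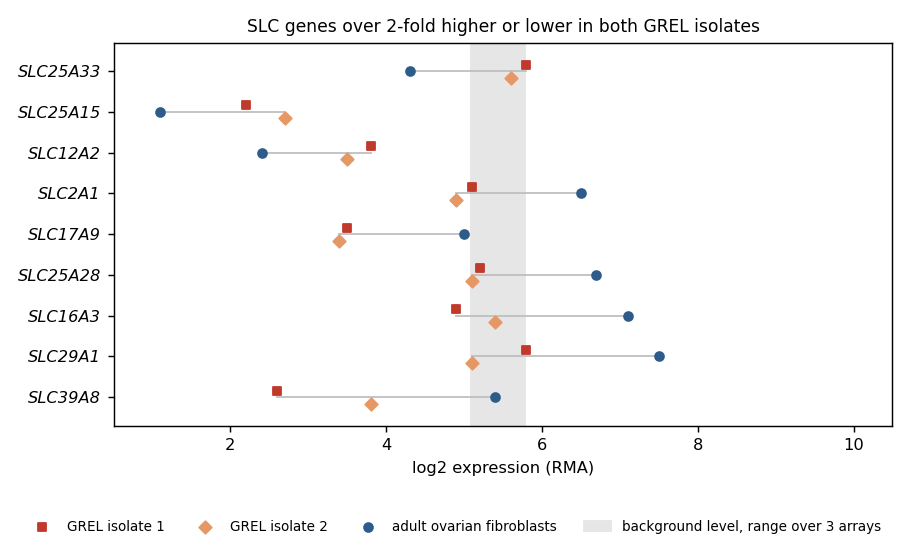
RMA log2 values (horizontal axis, 1 array for each culture) of the 9 SLC genes over 2-fold higher or lower in both GREL isolates than in the fibroblasts, for isolate 1 (squares), isolate 2 (diamonds) and adult ovarian fibroblasts (circles). The grey band spans the background levels of the 3 arrays (5.09 to 5.78), and both isolates lie on the same side of the fibroblasts in each gene by construction.

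No SLC gene passed the test of limma with Benjamini-Hochberg adjustment over all probe sets, nor did any other gene on the array (0%). The adjusted p of the SLC genes ran from 0.182 to 1. At an unadjusted p under 0.05 there were 12 SLC genes higher in GREL cells (6.70%, against 12.8% of all genes) and 19 lower (10.6%, against 11.1% of all genes). The fit has 1 residual degree of freedom, from the 2 isolates, and assumes that the fibroblast culture varies like them. The p-values thus set each difference against the spread between these 2 cultures, moderated over all probe sets. No spread between fibroblast cultures enters them.

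The glucose and lactate carriers held some of the widest differences. SLC2A1 (GLUT1), the glucose transporter of most cell types, was at a log2 value of 5.1 in isolate 1 and 4.9 in isolate 2, against 6.5 in the fibroblasts. The log2 difference was -1.50 ± 0.14 (SE, adjusted p = 0.193 in limma), and only the fibroblast value lay above background, so no fold is given. SLC16A3 (MCT4), which exports lactate from glycolytic cells, was at 4.9 in isolate 1 and 5.4 in isolate 2, against 7.1 in the fibroblasts. The log2 difference was -1.95 ± 0.35 (SE, adjusted p = 0.243 in limma), with the value of isolate 1 below background. SLC16A3 is read by 3 probe sets, and the dimmer ones did not share this difference: one was at 2.7 and 2.9 in isolates 1 and 2 and at 2.9 in the fibroblasts, the other at 1.7 and 1.4 in isolates 1 and 2 and at 1.5 in the fibroblasts. SLC16A1 (MCT1), a lactate and pyruvate carrier found in most cells, differed the other way. It was at 5.7 in isolate 1 and 6.4 in isolate 2, against 4.7 in the fibroblasts, the last below background (1.35 ± 0.49, SE, adjusted p = 0.336 in limma). Because isolate 1 was at exactly 2-fold, SLC16A1 is not among the genes counted over 2-fold in both isolates.

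Other sugar carriers were dim. Of 13 sugar and polyol transporters, SLC2A1 alone lay above the background level on any array. In both isolates 3 of the 13 were higher (41.6% of all genes were) and 6 were lower (33.5% of all genes were). Their median difference was -0.1. SLC2A3 (GLUT3), a glucose transporter of neurons and the placenta, was at 1.4 in both isolates and 1.8 in the fibroblasts. SLC2A8, an intracellular hexose transporter, was at 3.4 in isolate 1, 4.0 in isolate 2 and 3.8 in the fibroblasts, with the fibroblast value between those of the isolates. SLC5A10, a kidney sugar cotransporter, was at 2.7 and 3.1 in isolates 1 and 2 and at 1.7 in the fibroblasts on a dim probe set, and its other 2 probe sets differed by at most 0.3. The carboxylate carrier SLC13A3 was at 1.7 and 1.2 in isolates 1 and 2 and at 2.2 in the fibroblasts, below background throughout.

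The enzymes that use these solutes leaned the same way as SLC2A1. Of 18 measured genes of glycolysis and lactate metabolism (20 listed), 13 were lower in both isolates (33.5% of all genes were). Higher in both were 2 (41.6% of all genes were). The median difference of the 18 was -0.425, beside 0.05 for all genes. None was over 3-fold lower (2.38% of all genes were) and 2 were over 2-fold lower (4.78% of all genes were). PKM, the pyruvate kinase, was at 6.8 and 6.6 in isolates 1 and 2 and at 8.1 in the fibroblasts, and ALDOC, a brain aldolase, at 5.6 and 5.0 in isolates 1 and 2 and at 6.9 in the fibroblasts. LDHA, which makes lactate from pyruvate, was at 10.9 and 11.0 in isolates 1 and 2 and at 11.2 in the fibroblasts. LDHB, which favours the reverse reaction, was higher in the isolates, at 10.5 and 10.3 in isolates 1 and 2 against 9.9 in the fibroblasts. BSG, the chaperone that brings SLC16A1 and SLC16A3 to the cell surface, was at 10.2 in isolate 1, 10.6 in isolate 2 and 10.4 in the fibroblasts, so the fibroblasts lay between the isolates.

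SLC29A1 (ENT1), the equilibrative transporter that carries purine and pyrimidine nucleosides across the plasma membrane, was the nucleoside carrier with the widest difference. It was at 5.8 in isolate 1 and 5.1 in isolate 2, against 7.5 in the fibroblasts, and was above background in all 3 cultures, in isolate 2 only just. It was 3.25-fold lower in isolate 1 and 5.28-fold lower in isolate 2 (-2.05 ± 0.49, SE, adjusted p = 0.285 in limma), and the array holds 1 probe set for it. The other 3 nucleoside carriers were below background on every array, with differences between -0.2 and 0.1. SLC29A2 (ENT2) was at 3.4 and 3.0 in isolates 1 and 2 and at 3.1 in the fibroblasts. SLC28A3, a sodium-coupled nucleoside transporter, was at 1.8 and 2.0 in isolates 1 and 2 and at 2.1 in the fibroblasts.

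**Figure D2:**
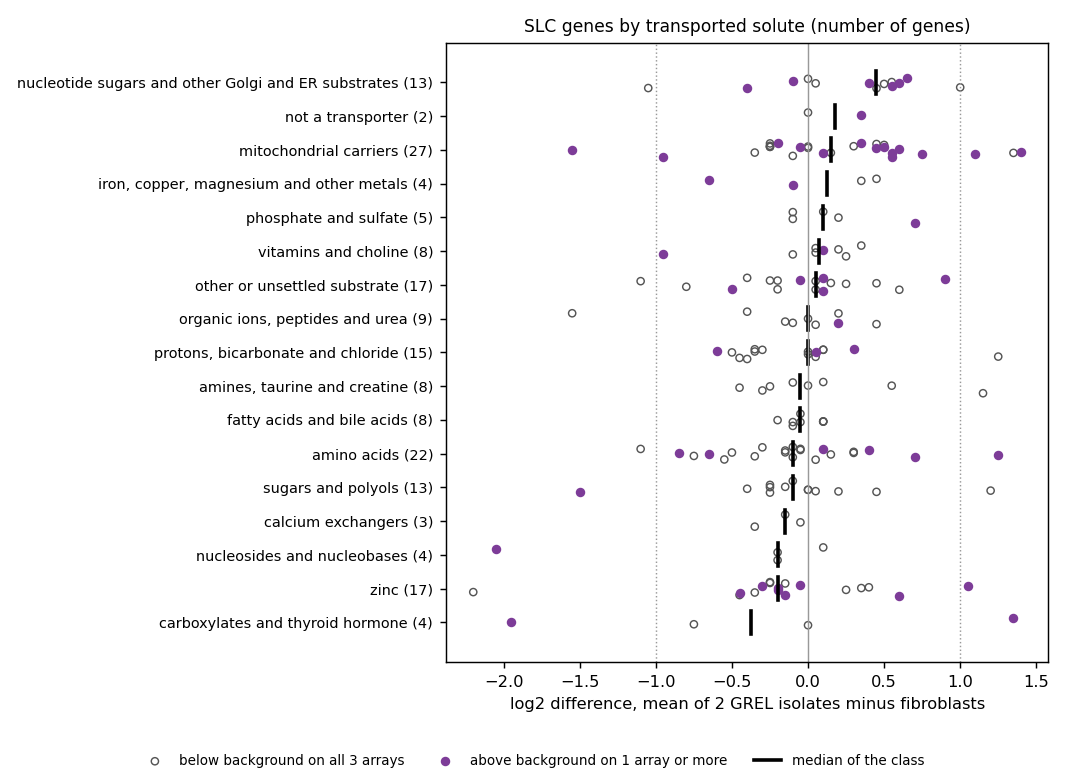
Mean log2 value of both GREL isolates minus that of the fibroblasts (horizontal axis) for each SLC gene (points, filled where the gene lies above the background level on at least 1 array), by solute class with the number of genes in brackets. The vertical bars give class medians, which run from -0.375 for carboxylates and thyroid hormone to 0.45 for nucleotide sugars and other Golgi and endoplasmic reticulum (ER) substrates, and the dotted lines mark 2-fold.

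Among 22 amino acid transporters none was over 2-fold higher or lower in both isolates. By any amount 4 were higher in both (41.6% of all genes were) and 10 were lower in both (33.5% of all genes were). The median difference was -0.1. SLC7A5 (LAT1), the exchanger that imports leucine and other large neutral amino acids, was the member with the highest difference. It was at 6.3 in isolate 1 and 5.8 in isolate 2, against 4.8 in the fibroblasts, the last below background (1.25 ± 0.35, SE, adjusted p = 0.286 in limma). SLC7A5 works only as a pair with the heavy chain SLC3A2, which was not higher in the isolates. SLC3A2 was at 7.1 in isolate 1 and 6.2 in isolate 2, against 7.3 in the fibroblasts. SLC43A2 (LAT4), which lets branched-chain amino acids leave or enter without exchange, was at 5.5 in both isolates and 4.8 in the fibroblasts (adjusted p = 0.182 in limma), and the identical rounded values of the isolates make its spread too small. SLC43A1 (LAT3), of the same family, lay the other way, at 4.6 and 4.1 in isolates 1 and 2 and 5.1 in the fibroblasts, all below background.

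The 2 isolates disagreed in both measured neutral amino acid exchangers of the SLC1 family. SLC1A5 (ASCT2), which takes up glutamine, was at 7.6 in isolate 1 and 5.8 in isolate 2, with the fibroblasts between them at 6.3. SLC1A4 (ASCT1), which carries alanine, serine and cysteine, was at 6.0 in isolate 1 and 4.9 in isolate 2, against 6.3 in the fibroblasts. Both genes (1.12% of the SLC genes) were over 2-fold higher in isolate 1 than in isolate 2, as were 1.25% of all genes. On the second, dimmer probe set of SLC1A4 the order of the isolates was the other way, with 3.2 in isolate 1, 3.7 in isolate 2 and 3.0 in the fibroblasts. Of the remaining transporters with known roles in growth, SLC38A2 (SNAT2), a sodium-coupled carrier of small neutral amino acids, was at 9.3 and 8.9 in isolates 1 and 2 and 9.0 in the fibroblasts, and SLC7A1 (CAT1), the main carrier of arginine and lysine, at 5.0 and 4.5 in isolates 1 and 2 and 4.6 in the fibroblasts. In both genes the fibroblasts lay between the isolates, and SLC7A1 was below background on every array. SLC38A5 (SNAT5), which carries glutamine and glycine, was lower in both isolates at 3.6 and 3.0, against 4.4 in the fibroblasts, all below background.

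Enzymes of amino acid synthesis and genes of the amino acid stress response (16 measured of 20 listed) had a median difference of -0.025. In both isolates 6 of the 16 were higher (41.6% of all genes were) and 4 were lower (33.5% of all genes were). Several of them also separated the isolates. PSAT1, of serine synthesis, was at 10.1 in isolate 1 and 8.9 in isolate 2, against 8.9 in the fibroblasts. TRIB3, a target of the stress response factor ATF4, was at 4.7 in isolate 1, 2.8 in isolate 2 and 4.1 in the fibroblasts. These TRIB3 values were below background on every array. On the probe sets used, SLC1A5, SLC1A4, SLC3A2, SLC7A5, PSAT1 and TRIB3 were all higher in isolate 1 than in isolate 2, a grouping made after their values were seen. GOT1 (7.1 in isolate 1, 7.2 in isolate 2) and GOT2 (8.2 and 8.6), of the same list of enzymes, lay the other way. Most others of that list were higher in isolate 1. DDIT3, another stress gene, was at 5.2 and 5.1 in isolates 1 and 2 and at 6.9 in the fibroblasts. It was the only gene of this list over 3-fold lower in both (2.38% of all genes were). BCAT1, the cytosolic branched-chain aminotransferase, was at 5.9 and 5.8 in isolates 1 and 2 and at 4.7 in the fibroblasts. It was the only one over 2-fold higher (5.80% of all genes were).

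**Figure D3:**
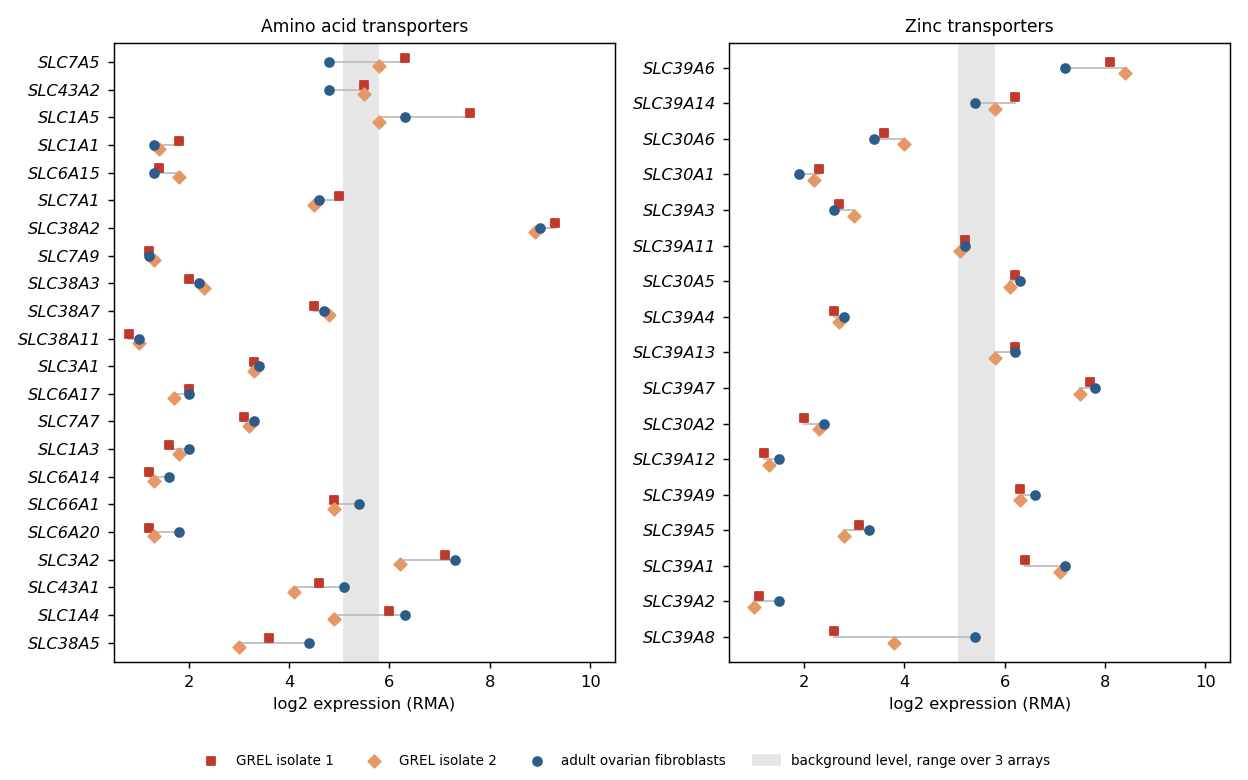
RMA log2 values (horizontal axes, 1 array for each culture) of the 22 amino acid transporters (left) and 17 zinc transporters (right) in GREL isolate 1 (squares), GREL isolate 2 (diamonds) and adult ovarian fibroblasts (circles), ordered by the mean difference, with the background levels as a grey band. SLC7A5 and SLC39A6 head the panels with both isolates above the fibroblasts, and the squares and diamonds lie farthest apart in SLC1A5 among amino acid transporters and in SLC39A8 among zinc transporters.

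The 27 mitochondrial carriers were the largest class and the one with the most genes above background (14 on at least 1 array, 7 on all 3). Of the 27, 13 were higher in both isolates (41.6% of all genes were) and 7 were lower (33.5% of all genes were). Their median difference was 0.15. At 2-fold 2 were higher (5.80% of all genes were) and 1 was lower (4.78% of all genes were). SLC25A33, which imports pyrimidine nucleotides into mitochondria, was at 5.8 in isolate 1 and 5.6 in isolate 2, against 4.3 in the fibroblasts. The log2 difference was 1.40 ± 0.14 (SE, adjusted p = 0.198 in limma), with the fibroblast value below background. Its second probe set was below background on all 3 arrays, at 3.8 and 3.5 in isolates 1 and 2 and 2.2 in the fibroblasts. SLC25A15, the ornithine carrier that links to the urea cycle, was at 2.2 and 2.7 in isolates 1 and 2 and 1.1 in the fibroblasts, far below background on all 3 arrays.

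SLC25A28 and SLC25A37 both import iron into mitochondria, and they differed in opposite directions. SLC25A28 (mitoferrin 2) was at 5.2 in isolate 1 and 5.1 in isolate 2, against 6.7 in the fibroblasts (-1.55 ± 0.07, SE, adjusted p = 0.182 in limma), with isolate 1 below background. SLC25A37 (mitoferrin 1), best known from red cell precursors, was at 5.6 in isolate 1 and 5.2 in isolate 2, against 4.9 in the fibroblasts, the last below background.

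The carriers that serve oxidative phosphorylation included the adenine nucleotide translocases, which exchange ATP for ADP, and the phosphate carrier SLC25A3. SLC25A3 was at 9.8 in isolate 1 and 9.9 in isolate 2, against 9.3 in the fibroblasts (0.55 ± 0.07, SE, adjusted p = 0.200 in limma). SLC25A4 (ANT1) was at 8.2 and 8.3 in isolates 1 and 2 and 7.5 in the fibroblasts (0.75 ± 0.07, SE, adjusted p = 0.195 in limma). In both genes the isolates lay within 0.1 of each other. SLC25A5 (ANT2), the form of dividing cells, was at 8.9 in isolate 1 and 9.3 in isolate 2, against 8.0 in the fibroblasts, on its brighter probe set. Its second probe set ran the other way, at 8.4 and 7.8 in isolates 1 and 2 and 9.1 in the fibroblasts, so no direction is given for SLC25A5. SLC25A6 (ANT3) was at 9.8, 9.9 and 9.9 in isolate 1, isolate 2 and the fibroblasts, and its 2 other probe sets lay on opposite sides of the fibroblasts.

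Carriers of other metabolites lay on both sides of the fibroblasts. SLC25A16, which is linked to coenzyme A in mitochondria, was at 5.3 in isolate 1 and 4.6 in isolate 2, against 5.9 in the fibroblasts, with isolate 2 below background. SLC25A26, which brings the methyl donor S-adenosylmethionine into mitochondria, was at 5.3 and 5.5 in isolates 1 and 2 and 4.8 in the fibroblasts, and SLC25A12, an aspartate and glutamate exchanger, at 5.4 and 5.3 in isolates 1 and 2 and 4.9 in the fibroblasts. Both were higher in the 2 isolates by 0.4 or more. The citrate carrier SLC25A1 was at 7.0 in both isolates and 7.2 in the fibroblasts, and the oxoglutarate carrier SLC25A11 at 5.8 and 6.0 in isolates 1 and 2 and 5.8 in the fibroblasts. SLC25A17, a family member of peroxisomes, was at 6.7 in isolate 1 and 6.2 in isolate 2, against 6.1 in the fibroblasts. SLC25A20, which carries acylcarnitines for fatty acid oxidation, separated the isolates, at 4.7 in isolate 1, 5.8 in isolate 2 and 4.7 in the fibroblasts, and its dimmer probe set did so too (3.2, 3.9 and 3.2 in that order).

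**Figure D4:**
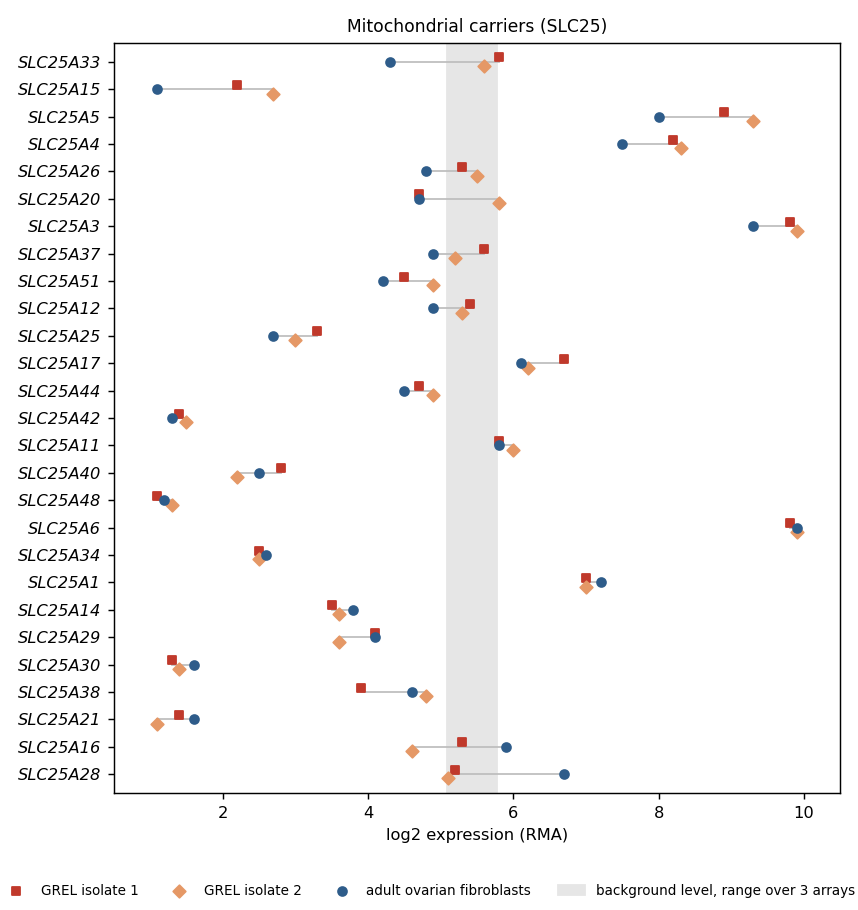
RMA log2 values (horizontal axis, 1 array for each culture) of the 27 mitochondrial carriers in GREL isolate 1 (squares), GREL isolate 2 (diamonds) and adult ovarian fibroblasts (circles), ordered by the mean difference, with the background levels as a grey band. SLC25A33 heads the plot at 1.40 and SLC25A28 ends it at -1.55, and in SLC25A3, SLC25A4 and SLC25A5 both isolates lie above the fibroblasts on the probe set shown.

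Zinc carriers were split between directions. Of 17, 5 were higher in both isolates (41.6% of all genes were) and 10 were lower (33.5% of all genes were). Their median difference was -0.2, and 8 were above background on at least 1 array. SLC39A6 (ZIP6), which imports zinc and is known as an oestrogen-regulated gene in human breast cells, was at 8.1 in isolate 1 and 8.4 in isolate 2, against 7.2 in the fibroblasts. It was 1.87-fold and 2.30-fold higher (1.05 ± 0.21, SE, adjusted p = 0.261 in limma), and its second probe set was higher as well, at 5.8 and 5.6 in isolates 1 and 2 and 4.7 in the fibroblasts. SLC39A14 (ZIP14), an importer of zinc, manganese and iron, was also higher, at 6.2 and 5.8 in isolates 1 and 2 and 5.4 in the fibroblasts. SLC39A8 (ZIP8), its close relative, had the lowest difference of the SLC genes on the probe sets used (the other tied probe set of SLC6A2 was lower). SLC39A8 was at 2.6 in isolate 1 and 3.8 in isolate 2, against 5.4 in the fibroblasts. The fibroblast value lay above the background levels of both isolates, but not above that of the fibroblasts. The log2 difference was -2.20 ± 0.84 (SE, adjusted p = 0.353 in limma), but no array held it above background and the isolates were over 2-fold apart, which leaves the size of the difference uncertain.

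Other zinc carriers above background included several of internal membranes. SLC39A7 (ZIP7), which releases zinc from the ER, was at 7.7 and 7.5 in isolates 1 and 2 and 7.8 in the fibroblasts. SLC30A5, which loads zinc into the secretory pathway, was at 6.2 and 6.1 in isolates 1 and 2 and 6.3 in the fibroblasts, and SLC39A9 was at 6.3 in both isolates and 6.6 in the fibroblasts. The second probe set of SLC39A9 ran the other way, at 4.6 and 4.5 in isolates 1 and 2 and 4.0 in the fibroblasts. SLC39A13, a zinc carrier of the Golgi region, was at 6.2 and 5.8 in isolates 1 and 2 and 6.2 in the fibroblasts, and SLC30A6, the partner of SLC30A5, was below background at 3.6 and 4.0 in isolates 1 and 2 and 3.4 in the fibroblasts. SLC39A1 (ZIP1), a zinc importer of the plasma membrane, was at 6.4 in isolate 1 and 7.1 in isolate 2, against 7.2 in the fibroblasts. The metal-binding metallothioneins did not share a direction, with MT1A at 6.2 and 6.4 in isolates 1 and 2 and 7.2 in the fibroblasts, and MT2A at 7.0 and 8.3 in isolates 1 and 2 and 7.9 in the fibroblasts. Of 14 measured genes of zinc and iron handling (19 listed), 4 were higher in both isolates (41.6% of all genes were). Lower in both were 5 (33.5% of all genes were), and the median of the 14 was -0.075. TF, the iron carrier transferrin, was the 1 gene of these over 3-fold higher (2.38% of all genes were). It was at 7.1 in isolate 1 and 6.0 in isolate 2, against 4.2 in the fibroblasts.

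Of the carriers of other metals, the copper importer SLC31A1 (CTR1) was at 7.8 in both isolates and 7.9 in the fibroblasts. SLC31A2, which acts on copper in endosomes, was at 5.4 and 5.5 in isolates 1 and 2 and 6.1 in the fibroblasts. The iron importer SLC11A2 (DMT1) was below background, at 3.0 and 3.1 in isolates 1 and 2 and 2.6 in the fibroblasts.

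The class with the highest median was that of nucleotide sugars and other Golgi and ER substrates, at 0.45 over 13 genes. In both isolates 8 of the 13 were higher (41.6% of all genes were) and 3 were lower (33.5% of all genes were). No member was over 2-fold either way in both isolates. SLC35A1, which carries CMP-sialic acid into the Golgi apparatus, was at 6.8 in isolate 1 and 7.5 in isolate 2, against 6.5 in the fibroblasts. SLC35B1, an ATP and ADP exchanger of the ER, was at 6.7 and 7.3 in isolates 1 and 2 and 6.4 in the fibroblasts, and SLC33A1, which brings acetyl-CoA into the ER, at 7.1 and 7.0 in isolates 1 and 2 and 6.5 in the fibroblasts. These 3 were above background on every array. The GDP-fucose carrier SLC35C1 was at 4.2 and 4.8 in isolates 1 and 2 and 3.5 in the fibroblasts, below background. SLC35D2, a carrier of UDP-N-acetylglucosamine, ran the other way at 4.3 and 4.0 in isolates 1 and 2 and 5.2 in the fibroblasts, also below background. SLC17A5 (sialin), which lets sialic acid out of lysosomes, was at 6.1 in both isolates and 6.5 in the fibroblasts.

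Among 15 carriers of protons, bicarbonate and chloride, 3 were higher in both isolates (41.6% of all genes were). Lower in both were 7 (33.5% of all genes were), and the median of the 15 was 0. SLC12A2 (NKCC1), the sodium, potassium and chloride cotransporter of the basolateral membrane of secretory epithelia, was over 2-fold higher, at 3.8 in isolate 1 and 3.5 in isolate 2, against 2.4 in the fibroblasts. Its second probe set, at 2.6 and 2.5 in isolates 1 and 2 and 1.6 in the fibroblasts, had the same direction, and both probe sets were below background on all 3 arrays (1.25 ± 0.21, SE, adjusted p = 0.230 in limma for the brighter). SLC4A2 (AE2), which exchanges chloride for bicarbonate, was at 5.4 in both isolates and 6.0 in the fibroblasts, above background throughout. SLC4A7, a sodium and bicarbonate cotransporter, was at 5.9 in isolate 1 and 5.2 in isolate 2, with the fibroblasts between them at 5.5. The phosphate importer SLC20A1 (PiT1) was higher in both isolates, at 6.9 and 7.1 against 6.3 in the fibroblasts, while SLC20A2 (PiT2) was at 4.2 in both isolates and 4.3 in the fibroblasts. The 3 calcium exchangers were below background, with differences from -0.35 to -0.05.

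Of 8 carriers of vitamins and choline, SLC44A2, which carries choline, was at 4.8 in isolate 1 and 4.9 in isolate 2, against 5.8 in the fibroblasts, with both isolates below background. The riboflavin carrier SLC52A2 was at 5.6 and 5.8 in isolates 1 and 2 and 5.6 in the fibroblasts, and the folate carrier SLC19A1 at 4.2 and 4.1 in isolates 1 and 2 and 3.9 in the fibroblasts. All 8 carriers of fatty acids and bile acids were below background on every array, with differences between -0.2 and 0.1.

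Amine carriers and organic ion transporters were mostly dim. SLC17A9, which loads ATP into vesicles, was the only one over 2-fold different in both isolates on the probe sets used, at 3.5 and 3.4 in isolates 1 and 2 and 5.0 in the fibroblasts, below background on all arrays (-1.55 ± 0.07, SE, adjusted p = 0.182 in limma). SLC6A4, the serotonin transporter, was at 2.1 in isolate 1 and 4.0 in isolate 2, against 1.9 in the fibroblasts. This was the widest gap between the isolates among the SLC genes (1.9 on the log2 scale), on values below background. SLC6A2, the noradrenaline transporter, was at 2.7 and 2.6 in isolates 1 and 2 and 3.1 in the fibroblasts on the probe set used. The probe set tied with it was at 1.9 and 2.0 in isolates 1 and 2 and 4.5 in the fibroblasts, and both were below background throughout. The creatine transporter SLC6A8 was at 4.5 in both isolates and 4.8 in the fibroblasts. SLC15A4, a lysosomal carrier of histidine and peptides, was at 5.3 and 5.7 in isolates 1 and 2 and 5.3 in the fibroblasts, and was the only organic ion or peptide carrier above background. In the 17 genes of other or unsettled substrate the median was 0.05, and SLC35A4 (5.4 and 5.8 in isolates 1 and 2, 4.7 in the fibroblasts) and SLC22A17 (4.3 and 3.9 in isolates 1 and 2, 5.2 in the fibroblasts) lay at its ends. SLC35A4 was higher on both of its probe sets, and SLC22A17 was below background on every array.

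The isolates lay close to each other in most SLC genes. The median gap between them was 0.2, as it was over all genes. In 30 of the 179 genes both had the same rounded value, as they had in 1276 of all 9155 genes. SLC25A20, SLC6A4 and SLC39A8 were over 2-fold higher in isolate 2 than in isolate 1 (3 genes, 1.68%, against 1.06% of all genes), beside the 2 that were higher in isolate 1. Across the 179 genes, which are not independent and share each array, the Pearson correlation of levels was 0.983 between isolates 1 and 2, 0.965 between isolate 1 and the fibroblasts and 0.952 between isolate 2 and the fibroblasts.

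**Figure D5:**
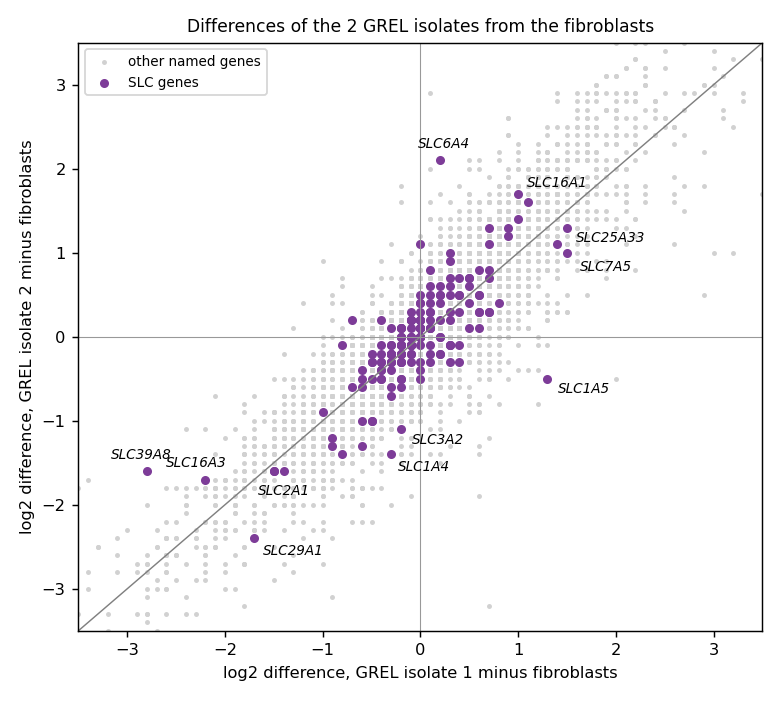
Log2 difference from the fibroblasts in GREL isolate 1 (horizontal axis) and GREL isolate 2 (vertical axis) for the SLC genes (large points) and the other named genes (small points), with the line of equal differences. Both axes use the same fibroblast array and end at 3.5 in each direction, with 68 other genes outside, and SLC6A4 and SLC1A5 lie farthest from the line among the SLC genes.

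The thresholds fell among genes with like values. On the lower side the smaller of the isolates' log2 differences was -1.7 for SLC16A3 and SLC29A1 and -1.6 for SLC39A8, just past 3-fold, and -1.5 for SLC25A28 and SLC17A9 and -1.4 for SLC2A1, just short of it. On the higher side it was 1.3 for SLC25A33 and 1.1 for SLC25A15 and SLC12A2, past 2-fold, and 1.0 for SLC16A1, SLC7A5 and SLC5A10, which is exactly 2-fold and was not counted. Of the SLC genes 51 had several probe sets, and of the 73 probe sets not used, 51 lay within 0.5 of the chosen one in their difference and 9 lay over 1 away.

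Other genes of membrane transport were taken as lists. Of 19 measured subunits of sodium, calcium and proton pumps (25 listed) none was over 2-fold either way, with a median difference of 0. ATP1B1, a beta subunit of the sodium pump, was at 9.0 and 9.1 in isolates 1 and 2 and 9.9 in the fibroblasts. Of 14 measured ABC transporters (35 listed) 1 was over 2-fold higher (5.80% of all genes were), and the median was 0.15. It was ABCA3, a lipid transporter below background throughout, at 4.4 and 4.3 in isolates 1 and 2 and 3.0 in the fibroblasts. Of 11 measured partners of transporters (19 listed), 1 was over 3-fold higher (2.38% of all genes were) and 2 were over 2-fold lower (4.78% of all genes were), with a median of -0.45. NHERF1, a scaffold that anchors transporters on the apical side of epithelial cells, was at 7.5 in both isolates and 5.0 in the fibroblasts. FXYD5, a regulator of the sodium pump, was at 5.3 and 5.6 in isolates 1 and 2 and 6.8 in the fibroblasts, and PRNP, the prion protein, was at 7.5 and 7.3 in isolates 1 and 2 and 8.6 in the fibroblasts.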

How the data were processed

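RNA from 3 cultures was read on 3 Affymetrix GeneChip Bovine Genome Arrays. The deposited log2 values come from RMA, by which the authors subtracted background and quantile normalized (Partek version 6.5 in the submitters' processing notes), rounded to 0.1, with no detection calls. The table holds 24128 probe sets, of which 24016 were tested after removal of 112 array controls. Symbols came from the platform annotation: 13292 probe sets had 1 symbol, 86 had several and 10638 were unnamed here, and 13263 gene identifiers were found in the current bovine gene table (0 symbols differed). All value columns belong to these samples. No genome build is given in the sources used here.

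GREL cells minus fibroblasts was fitted with lmFit and eBayes of limma 3.58.1 in R 4.3.3 over all probe sets (1 residual degree of freedom, adjusted p under 0.05), in place of the one-way ANOVA of the methods. SE is the one moderated by eBayes. Counts required the fold in each isolate. Other steps used Python 3.11.15 with pandas 2.3.3 and numpy 2.4.6. In 3513 probe sets the rounded isolates are equal, which makes their spread too small. The calculations were tested on simulated data. The number of arrays limits the precision, and the fibroblasts have no replicate.

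The members, solute classes and gene lists were chosen with earlier results of these data known. The rule for named genes took up to 12 genes in each direction over 2-fold and above background, up to 3 brightest genes of each class, genes with isolates over 2-fold apart, 33 measured of 40 textbook transporters, and members of the other lists. It named 66 SLC genes. SLC25A15 and others outside it were named after their values were seen. Alternatives were other normalization, filters, folds, probe set rules and fits, and leaving out an isolate.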

Additional observations from a re-analysis of the deposited data

How the results depend on the processing

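Counts of SLC genes depended on the fold, the background level and the isolates. The main counts were 0 over 3-fold higher, 3 over 3-fold lower, 3 over 2-fold higher and 6 over 2-fold lower in both isolates. With 2-fold in place of 3-fold the first became 3 and the second 6, and with 4-fold the second became 0. The count over 3-fold lower was 6 with quantile normalization applied again, 5 with arrays centred on the median and 0 among the 10 genes above the stricter level (the 95th percentile of genes from other organs). No share of all genes was computed for these settings. The counts are thus not read as particular to SLC genes. Above the stricter level the counts at 2-fold were 0 higher and 0 lower. The median difference there was 0.475, against 0 in the main analysis. Above the main background level 1 gene was over 2-fold higher. Leaving out 1 isolate gave 0 to 3 genes over 3-fold higher, 3 to 6 over 3-fold lower, 5 to 11 over 2-fold higher and 6 to 12 over 2-fold lower. The 3 over 3-fold higher appeared without isolate 1 and were SLC25A15, SLC16A1 and SLC6A4, and SLC25A28, SLC17A9 and SLC2A1 joined those over 3-fold lower.

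With a robust prior limma called 5 SLC genes at an adjusted p under 0.05 (SLC43A2 higher and SLC17A5, SLC2A3, SLC4A2 and SLC66A1 lower), which is 2.79% of the SLC genes, where 4.95% of all probe sets were called. The isolates have the same rounded value in each of the 5. It called 0 with an intensity trend, with a filter on dim probe sets and with quantile normalization applied again, and the methods' test called 0. Unadjusted, 12 and 18, 5 and 7, 12 and 19 and 0 and 2 SLC genes were higher and lower at p under 0.05 in these 4 settings. No share of all genes was computed for these unadjusted counts. The third probe set of SLC16A3 gave a difference of 0.05, against -1.95. With the mean over its probe sets SLC16A3 was not over 3-fold lower. The cause of these changes was not tested. The difference of a named SLC gene counted as moved when it changed by more than the spread of the isolates, or by more than 0.1 where that spread was smaller. Centring the arrays on the median shifts every difference by the same small amount, so the 0 of 66 that moved there was fixed in advance. It took the median over all genes from 0.05 to 0. The difference moved in 1 of 66 genes with quantile normalization applied again and in 10 of 66 with the mean over probe sets. On the next probe set of a gene it moved in 16 of 24 genes, and on the one after that it moved in 9 of 10 and reversed in 1, SLC16A3. Of 34 counts over 2-fold by solute class and direction, 4 moved above the background level, 2 with the mean over probe sets and 5 at 3-fold. With the other tied probe set of SLC6A2, chosen after the data were seen, 4 genes were over 3-fold lower and 7 over 2-fold lower.

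No paired analysis was possible because the fibroblasts have 1 array, and without either isolate limma has no residual degrees of freedom.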
